A study of Homo sapiens with 34 samples.

Results

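The 10 genes described here are 9 matrix metalloproteinases (MMP1, MMP2, MMP3, MMP7, MMP9, MMP10, MMP12, MMP13 and MMP14) and TIMP1, taken by symbol from the 26336 genes of a read count table. All 10 symbols were found, and each was followed through 34 RNA-seq libraries in 17 groups. The libraries come from 4 established human prostate cell lines. RWPE is a non-tumorigenic prostate epithelial line. LNCaP, which the series uses to stand for early adenocarcinoma, was derived from a lymph node metastasis. VCaP and MDAPCa2a come from bone metastases. Cells grew on tissue culture plastic or on a surface of amorphous calcium phosphate (ACP), a mineral related to bone mineral. RWPE was grown on plastic and ACP in control medium (2 libraries each) and on ACP in medium with androgen (3 libraries). LNCaP and VCaP each had 5 groups: control medium and charcoal-dextran stripped serum on plastic, and control medium, stripped serum and stripped serum with androgen on ACP. MDAPCa2a had the same groups without ACP control. All of these held 2 libraries except VCaP in stripped serum on plastic, which held 1. The androgen is labelled at 100 mM and is named differently in different labels, so it is called androgen here, and the groups other than plastic control are labelled day 4. Plastic control is labelled as continuous culture, although the treatment protocol has it passaged and grown for 4 days like the rest, so time in culture may also differ in every comparison against it. RWPE control medium is serum-free while its androgen medium contains stripped serum, so serum and androgen change together in that line. Control medium may therefore differ along with the line in every comparison against RWPE on plastic, and these 2 cannot be told apart there. MDAPCa2a plastic carried a protein coating that its ACP surface lacked, so surface and coating change together there. The labels do not say that replicates were separate cultures, and p-values therefore measure only the spread between these samples.

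Matrix metalloproteinases are zinc enzymes that are made as inactive precursors and cut proteins of the extracellular matrix and of the cell surface. MMP1 and MMP13 are collagenases that cleave fibrillar collagen, MMP2 and MMP9 are gelatinases, MMP3 and MMP10 are stromelysins with a broad range of matrix substrates, MMP7 is the small epithelial enzyme matrilysin, and MMP12 is an elastase best known from macrophages. MMP14 is anchored in the plasma membrane, cleaves collagen at the cell surface and activates the precursor of MMP2. TIMP1 is a secreted inhibitor that binds active metalloproteinases and inhibits MMP14 poorly. In the prostate, MMP7 is known as a product of epithelial cells, and bone metastasis involves proteolysis of a mineralised collagen matrix.

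MMP7, MMP10, MMP1, MMP3, MMP12 and MMP13 lie on chromosome 11 in a run of 9 consecutive genes, all of them MMP genes. MMP14 is on chromosome 14, MMP2 on 16, MMP9 on 20 and TIMP1 on X. Promoter sequences of 4 of the 10 genes, MMP7, MMP10, MMP14 and TIMP1, were matched in RefSeq (GRCh38.p14), and these are the 4 genes with the highest levels in the data. They are shown because the pair that is high in MDAPCa2a shares motifs that the pair that is high in RWPE lacks. Each line gives the 100 bases before the annotated start, 5′ to 3′ on the gene's strand. They are MMP7 at chr11:102530748-102530847 on the minus strand, MMP10 at chr11:102780629-102780728 on the minus strand, MMP14 at chr14:22836485-22836584 on the plus strand and TIMP1 at chrX:47582336-47582435 on the plus strand. Capitals mark matches to 3 motifs on either strand. TGANTCA holds the letters of an AP-1 site. TATAAA is the core promoter motif bound by TBP. GGGCGG is the motif of SP family factors.
MMP7: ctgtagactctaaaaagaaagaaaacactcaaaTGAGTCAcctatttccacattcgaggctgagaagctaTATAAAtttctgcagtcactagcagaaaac
MMP10: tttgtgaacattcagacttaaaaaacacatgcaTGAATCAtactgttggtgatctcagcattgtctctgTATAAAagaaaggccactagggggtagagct
MMP14: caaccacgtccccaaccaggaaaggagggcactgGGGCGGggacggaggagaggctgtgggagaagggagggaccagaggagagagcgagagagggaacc
TIMP1: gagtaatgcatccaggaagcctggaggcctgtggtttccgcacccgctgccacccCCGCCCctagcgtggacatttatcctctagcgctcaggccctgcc
In MMP7 and MMP10 the TGANTCA match covers bases -67 to -61 before the start, and TATAAA begins at -30 in MMP7 and at -31 in MMP10. MMP14 has GGGCGG at -66 to -61, and TIMP1 has it on the opposite strand at -45 to -40. Over 250 bases before the start, MMP14 and TIMP1 had no match to TGANTCA or TATAAA on either strand, and MMP7 and MMP10 had none to GGGCGG. Of 35116 promoters in the same table, searched on both strands within 100 bases, 2.75% held TGANTCA, 4.99% held TATAAA, 0.208% held both and 31.3% held GGGCGG. A match of letters is a description and not a binding site. The sequences were shown after the matches were seen, so the shares do not test a link to the line pattern. MMP1, MMP3, MMP12 and MMP13 of the same run were not matched. MMP20, which lies next to MMP7 and was also high in MDAPCa2a, had TGANTCA at -112 to -106 and TATAAA at -72 to -67. MMP8 had TATAAA alone, at -110 to -105, and MMP27 had none of the 3 motifs.

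The genes divided by cell line. RWPE held high MMP14 and TIMP1, MDAPCa2a held high MMP7 and MMP10, VCaP held moderate MMP10, and LNCaP held low levels of every member. Of the 84472 reads that the 10 genes received in RWPE, MMP14 took 83.2% and TIMP1 16.1%. In MDAPCa2a, MMP7 took 84.2% and MMP10 11.3% of 48896 reads. In VCaP, MMP10 took 60.6% of 2577 reads. The 2123 reads of LNCaP were spread over MMP7 (26.5%), MMP13 (24.6%) and MMP12 (20.6%), the last of which came almost entirely from 2 libraries. Per kilobase of exon, the plastic control levels were 127 ± 8.12 CPM (reads scaled to library size) for MMP14 and 48.9 ± 1.49 for TIMP1 in RWPE, and 235 ± 28.0 for MMP7 and 33.0 ± 10.4 for MMP10 in MDAPCa2a (SD, n = 2 each). These per-kilobase values are the only ones here that compare 1 gene with another. All other levels are CPM.

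**Figure D1:**
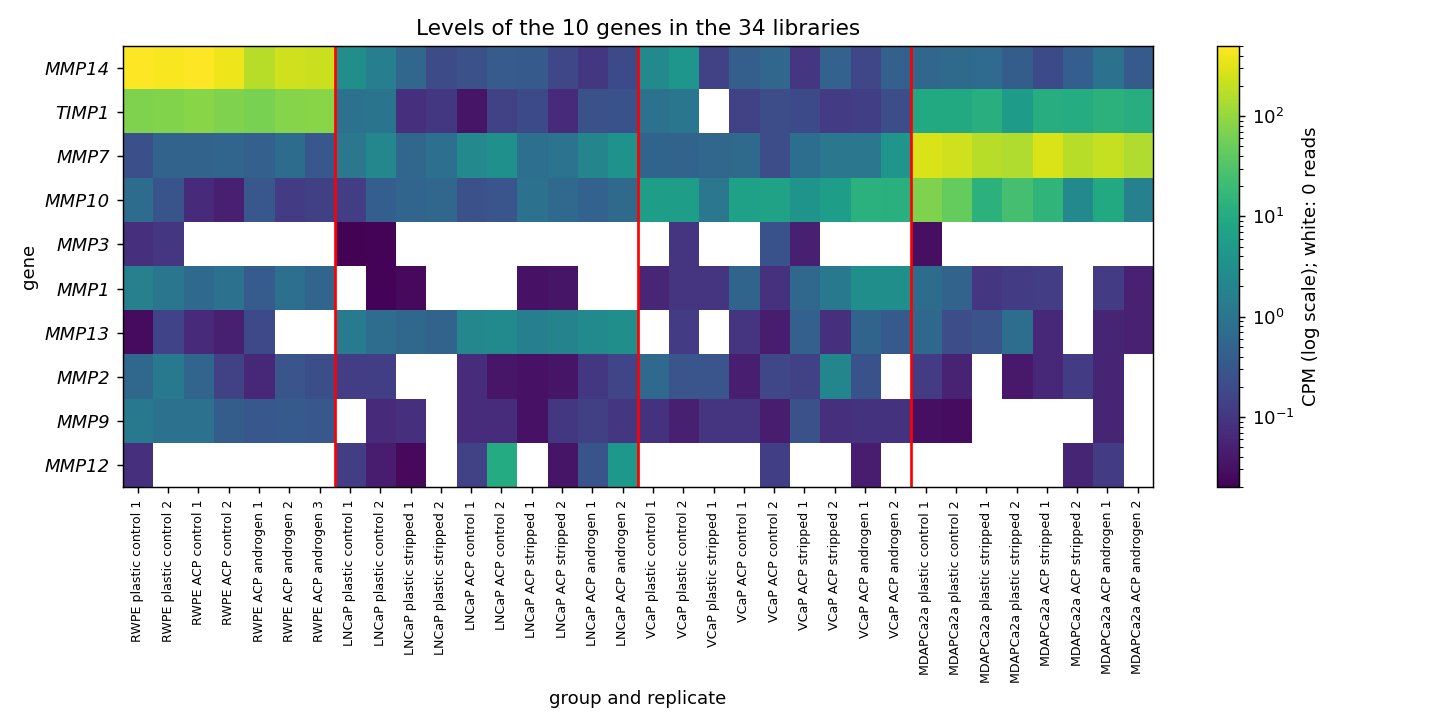
Level of each of the 10 genes (rows) in each of the 34 libraries (columns, ordered by line and group), in CPM on a logarithmic colour scale with white for 0 reads; red lines separate the 4 lines. MMP14 and TIMP1 are bright in the 7 RWPE libraries, MMP7 and MMP10 in the 8 MDAPCa2a libraries, and MMP3 and MMP12 are white in most.

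Libraries held between 15.4 M and 44.8 M counted reads. Marker levels fitted the line names: the summed CPM of KRT5, KRT14 and TP63 (basal epithelium) was 3348 to 15698 in RWPE and at most 37.2 elsewhere, that of KLK3, KLK2 and TMPRSS2 (luminal epithelium) was at most 38.6 in RWPE and at least 261 elsewhere, and ERG was 126 to 882 CPM in VCaP and at most 2.32 in the other lines. The 8 plastic control libraries stood apart from the other 26 in a way not tied to a line. FGG, a liver transcript, had 1.41 to 2.84 CPM in all 8 and 0 reads in 25 of the other 26. Of 18039 genes with at least 34 reads, 240 (1.33%) were higher in the plastic control libraries than in every other library of the same line in all 4 lines. In every comparison against plastic control, such a difference between library sets and the effect of surface or medium cannot be told apart. In bulk RNA, fewer cells of a type and less RNA per cell cannot be told apart either.

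MMP14, the membrane-anchored collagenase, was an RWPE gene in these libraries. Its levels in RWPE were 494 and 451 CPM on plastic, 485 and 382 on ACP in control medium, and 171, 236 and 226 on ACP with androgen. In the other lines the highest libraries were those of plastic control, at 2.96 and 1.501 CPM in LNCaP and 2.45 and 4.02 in VCaP. All remaining LNCaP and VCaP libraries and all MDAPCa2a libraries lay between 0.0975 and 0.860 CPM. Every RWPE library was therefore above every library of the other lines, and the highest LNCaP, VCaP and MDAPCa2a group means were 0.472%, 0.685% and 0.130% of the highest RWPE group mean. By edgeR's quasi-likelihood test in a fit of all 34 libraries, MMP14 was lower than in RWPE in all 3 lines, with log2 differences of -7.72 ± 0.41 (SE) in LNCaP, -7.18 ± 0.40 in VCaP and -9.58 ± 0.46 in MDAPCa2a on plastic (adjusted p = 1.03e-13, 1.91e-13 and 1.57e-14). On ACP with androgen these were -10.41 ± 0.51, -9.41 ± 0.48 and -8.46 ± 0.45 (adjusted p = 1.27e-14, 2.30e-14 and 6.44e-14).

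TIMP1, the inhibitor, was also highest in RWPE, but here MDAPCa2a held an intermediate level. RWPE libraries had 69.8 and 72.9 CPM on plastic, 82.2 and 69.6 on ACP in control medium and 66.0, 80.1 and 82.2 on ACP with androgen. MDAPCa2a had 9.34 and 9.43 on plastic control, 11.9 and 5.49 in stripped serum on plastic, 10.8 and 10.6 in stripped serum on ACP, and 13.5 and 10.9 with androgen. The 3 RWPE groups overlapped each other. In MDAPCa2a, stripped serum on plastic overlapped each of the other groups, and those 3 did not overlap each other. No library of 1 line overlapped the other. LNCaP and VCaP had 0.875 to 1.08 CPM in plastic control and 0 to 0.261 elsewhere. Against RWPE, the log2 difference was -2.93 ± 0.27 for MDAPCa2a on plastic (adjusted p = 1.23e-09) and -2.64 ± 0.26 on ACP with androgen (adjusted p = 2.57e-09), while LNCaP and VCaP differed by -6.26 ± 0.32 and -6.17 ± 0.32 on plastic and by -8.21 ± 0.37 and -8.73 ± 0.40 on ACP with androgen (edgeR, largest adjusted p = 8.08e-14). TIMP1 lies inside SYN1 on the opposite strand, and whether the counting used strand is not given in the sources used here. SYN1 reached 20.3 CPM in VCaP in stripped serum on plastic, the only library with 0 TIMP1 reads. It had at most 1.97 CPM in RWPE, 0.0827 in MDAPCa2a and 0.175 in LNCaP, where TIMP1 was also low.

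**Figure D2:**
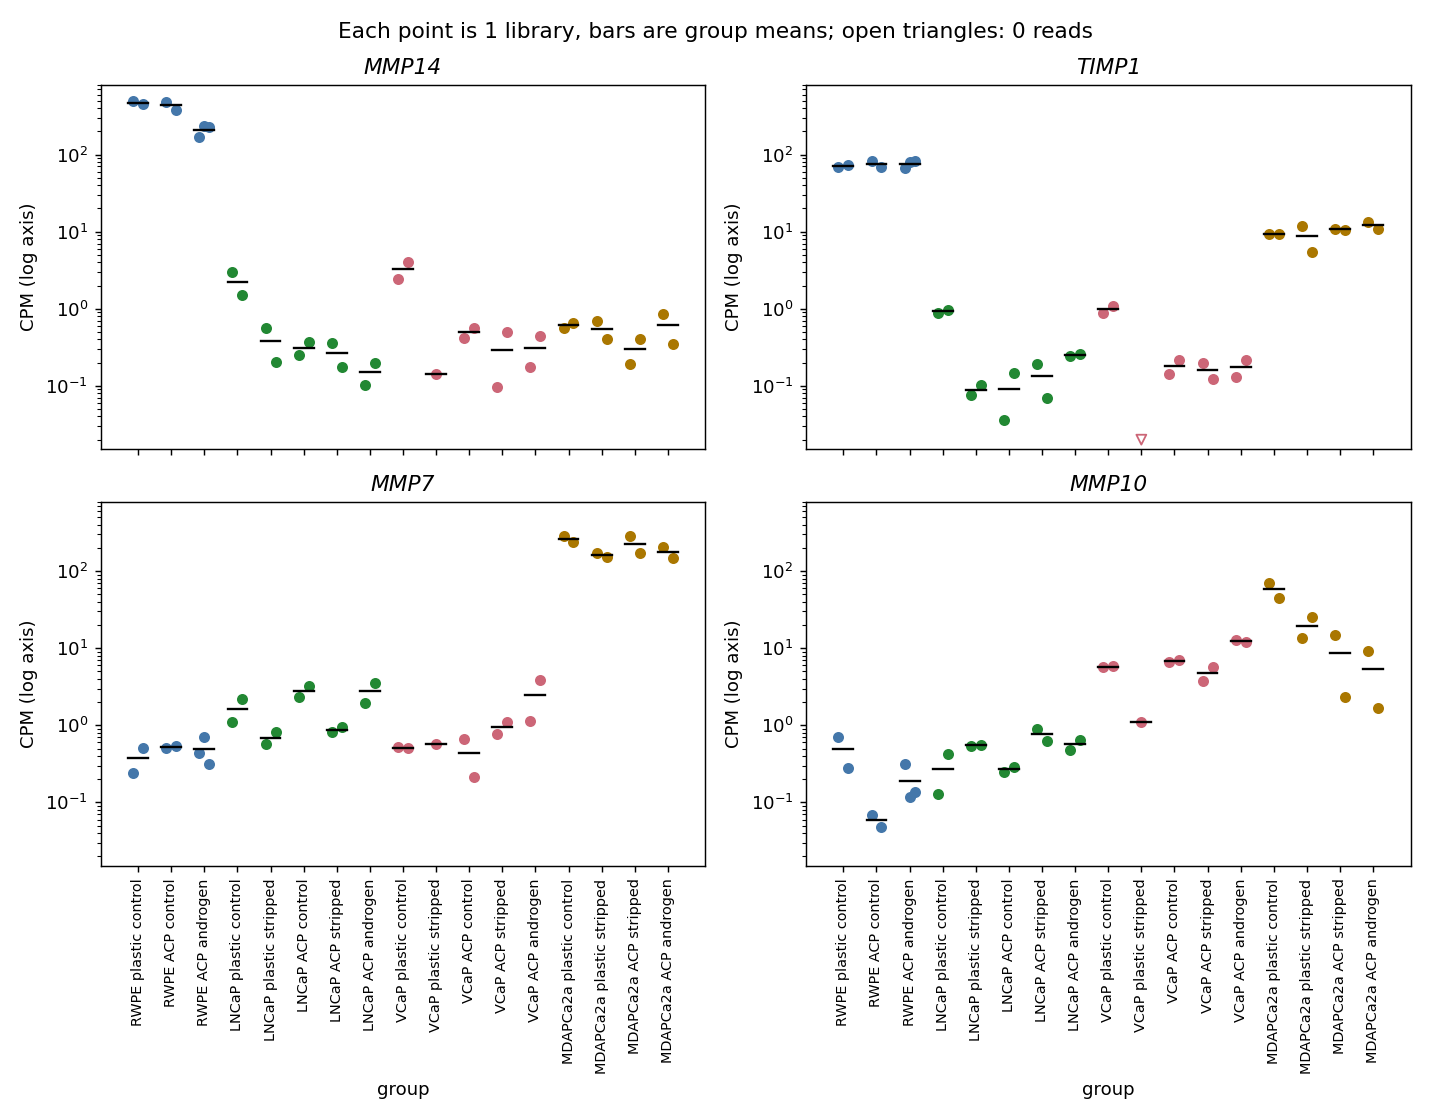
CPM on a logarithmic axis of MMP14, TIMP1, MMP7 and MMP10 in the 17 groups, with 1 point per library (coloured by line), a bar at each group mean and an open triangle for 0 reads. MMP14 and TIMP1 are highest in the 3 RWPE groups, MMP7 is between 148 and 287 CPM in MDAPCa2a and under 4 elsewhere, and MMP10 spreads within MDAPCa2a from 1.67 to 71.0 CPM.

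MMP7, matrilysin, was an MDAPCa2a gene. Its levels there were 287 and 242 CPM in plastic control, 171 and 151 in stripped serum on plastic, 283 and 171 in stripped serum on ACP and 204 and 148 with androgen. The highest library of any other line had 3.90 CPM, and the highest group means of LNCaP, VCaP and RWPE were 1.05%, 0.9498% and 0.198% of the highest MDAPCa2a group mean. Against RWPE, MMP7 was higher in MDAPCa2a by 9.45 ± 0.54 log2 units on plastic (adjusted p = 2.67e-13) and by 8.52 ± 0.45 on ACP with androgen (adjusted p = 5.27e-14). LNCaP was also above RWPE in both settings, by 2.12 ± 0.51 (adjusted p = 0.000985) and 2.54 ± 0.49 (adjusted p = 6.98e-05). In VCaP the value was 0.45 ± 0.60 on plastic (adjusted p = 0.524), which did not pass, and 2.39 ± 0.51 on ACP with androgen (adjusted p = 0.000202). That last call was lost without VCaP ACP androgen replicate 2 (1.31, adjusted p = 0.0587).

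MMP10, a stromelysin that activates other metalloproteinases, was highest in MDAPCa2a, where its replicates lay far apart on ACP, and present in VCaP. MDAPCa2a had 71.0 and 45.2 CPM in plastic control, 13.4 and 25.2 in stripped serum on plastic, 15.01 and 2.32 in stripped serum on ACP, and 9.23 and 1.67 with androgen. VCaP had 5.69 and 5.88 CPM in plastic control, 1.10 in its single stripped serum library on plastic, 6.67 and 6.95 in control medium on ACP, 3.75 and 5.78 in stripped serum on ACP, and 12.98 and 12.2 with androgen. In RWPE and LNCaP no library exceeded 0.905 CPM. The order of the lines thus depended on the group: MDAPCa2a was above VCaP in plastic control, while with androgen on ACP both VCaP libraries were above both MDAPCa2a libraries; these 2 lines were not tested against each other. Against RWPE, MMP10 was higher in MDAPCa2a by 6.86 ± 0.76 on plastic and 4.86 ± 0.77 on ACP with androgen, and in VCaP by 3.54 ± 0.70 and 6.07 ± 0.75 (edgeR, log2, adjusted p = 3.42e-08, 6.46e-06, 0.000108 and 1.24e-07). LNCaP did not pass in either setting (adjusted p = 0.387 and 0.134). MMP10 and MMP1 lie inside the transcribed pseudogene WTAPP1 on the opposite strand, which had 65 reads at most in a library. In MDAPCa2a plastic control WTAPP1 had 50 and 65 reads, while no library of that line had more than 24 MMP1 reads. MMP3, the other stromelysin, had 0 to 6 reads in every library, passed the count filter in no fit and was not tested.

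The collagenases had low levels with different line patterns. MMP1 was highest with androgen on ACP in VCaP (3.16 and 3.11 CPM, 73 and 71 reads), followed by RWPE in plastic control (1.65 and 1.06 CPM). LNCaP had 0 or 1 read of MMP1 in each of its 10 libraries. On plastic, MMP1 was lower in VCaP than in RWPE by 4.03 ± 0.74 log2 units (adjusted p = 5.82e-05). On ACP with androgen it was higher in VCaP by 2.42 ± 0.55 (adjusted p = 0.000517), and each call held without each library in turn. In LNCaP its 1 read in plastic control gave a ratio of RWPE to LNCaP of 125 (95% exact interval 21.9 to 4974, counting error only), and on ACP with androgen MMP1 was at least 11.5-fold lower than in RWPE. Both LNCaP differences passed the edgeR test (adjusted p = 2.53e-06 and 5.13e-05). In MDAPCa2a MMP1 did not pass on plastic (-1.16 ± 0.60, adjusted p = 0.103) and passed with androgen (adjusted p = 0.00723), where 3 reads gave a ratio of 7.20 (2.25 to 36.8), and that call was lost without MDAPCa2a ACP androgen replicate 2 (adjusted p = 0.0832).

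MMP13 had reads in every LNCaP library, from 0.510 to 3.10 CPM. It was higher in LNCaP than in RWPE by 3.44 ± 0.85 log2 units on plastic (adjusted p = 0.00122), and on ACP with androgen 168 reads in LNCaP against 3 in RWPE gave a ratio of 51.9 (17.4 to 254, adjusted p = 4.48e-06). In VCaP with androgen, 20 reads gave a ratio of 8.01 (2.37 to 42.1, adjusted p = 0.0161) that was no longer called without RWPE ACP androgen replicate 2 or 3 (adjusted p = 0.0507 and 0.0638) or VCaP ACP androgen replicate 1 (adjusted p = 0.0824), or with the replicate block (adjusted p = 0.0812). In MDAPCa2a on plastic the value of 2.11 ± 0.90 (adjusted p = 0.0472) was lost without RWPE plastic control replicate 1 (1.36) and without MDAPCa2a plastic control replicate 1 (1.25). It was also lost with RLE scaling, DESeq2 and the replicate block (adjusted p = 0.0580, 0.0644 and 0.0512). VCaP on plastic and MDAPCa2a with androgen did not pass (adjusted p = 0.739 and 1).

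The gelatinases were low in all 4 lines. MMP9 had 46 and 36 reads in RWPE plastic control (1.22 and 0.910 CPM), 5 to 26 in the other RWPE libraries and at most 5 in any library of another line. It was lower than in RWPE on plastic in VCaP (-3.91 ± 0.80, adjusted p = 0.000188), in LNCaP (3 reads, ratio 32.8 with an interval of 10.8 to 162, adjusted p = 3.72e-05) and in MDAPCa2a (2 reads, ratio 37.1, 9.95 to 311, adjusted p = 5.36e-05). With androgen only MDAPCa2a passed (adjusted p = 0.0118), at 1 read, and that call was lost without MDAPCa2a ACP androgen replicate 2 (adjusted p = 0.125) and with DESeq2 (adjusted p = 0.0557). MMP2 had 23 and 47 reads in RWPE plastic control and was lower there in LNCaP (-2.75 ± 0.94, adjusted p = 0.0154) and MDAPCa2a (-3.32 ± 1.03, adjusted p = 0.00827). With androgen on ACP it passed in no line. The LNCaP call was lost without RWPE plastic control replicate 2 (-2.20) or either LNCaP library (-2.72 without replicate 1, -2.78 without replicate 2), and the MDAPCa2a call without RWPE plastic control replicate 2 (-2.76) or MDAPCa2a plastic control replicate 2 (-2.87). The highest MMP2 library of the series was VCaP in stripped serum on ACP, replicate 2, with 51 reads (2.09 CPM) against 3 in replicate 1. In that library LUM, a fibroblast proteoglycan, had 153 CPM against 36.7 in replicate 1. COL1A1 (6.68 against 2.83 CPM), DCN (1.35 against 0.829), COL3A1 (0.451 against 0.0975) and PDGFRB (1.60 against 1.07) were also higher there. PDGFRA was lower (0.0410 against 0.293), and COL1A2 and THY1 had 0 reads in both. The part of these transcripts in the MMP2 value was not tested.

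Counted together, 7 of the 9 tested members differed between LNCaP and RWPE on plastic, 5 in VCaP and 7 in MDAPCa2a, where 57.4%, 62.4% and 56.7% of all 17323 tested genes did. With androgen on ACP, 6 of 9 differed in each line, against 66.9%, 67.4% and 64% of all genes. These shares lie near the background, so the count of members that differ is not a result of its own.

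MMP12, the macrophage elastase, was found in 2 libraries and almost nowhere else. LNCaP ACP control replicate 2 had 279 reads (10.2 CPM) and replicate 1 had 4. LNCaP ACP androgen replicate 2 had 137 reads (4.47 CPM) and replicate 1 had 8. The other 30 libraries of the series had 0 to 6, so no group was high in both replicates. The 8 listed myeloid markers summed to 6.51 and 36.9 CPM in replicates 1 and 2 of LNCaP ACP control and to 33.2 to 38.8 in ACP androgen. Nearly all of that was CD68 (5.97 and 32.5 CPM in ACP control, 37.6 and 32.1 in ACP androgen), a lysosomal protein that epithelial lines also make. ITGAM, a myeloid integrin subunit, had 9 and 107 reads (0.322 and 3.91 CPM) in replicates 1 and 2 of ACP control. In those of ACP androgen it had 3 and 17 (0.104 and 0.555 CPM). Within each of these groups ITGAM was thus higher in the replicate with more MMP12. In LNCaP plastic control, however, ITGAM had 16 to 25 reads (0.353 to 0.528 CPM), with MMP12 at most 0.127 CPM. The ITGAM level of ACP androgen replicate 2 was therefore near that of plastic control. CD14 and TYROBP had 0 reads in both ACP control libraries and TYROBP in both ACP androgen libraries. The other listed markers had few reads. In ACP control replicates 1 and 2, CSF1R had 1 and 5, CD163 0 and 3, PTPRC 1 and 2, and LYZ 4 and 3. In ACP androgen replicates 1 and 2, CSF1R had 4 and 8, CD163 1 and 1, PTPRC 2 and 3, LYZ 24 and 6, and CD14 1 and 0. The part of these transcripts in the MMP12 values was not tested. On ACP with androgen, where RWPE had 0 reads, the pooled LNCaP reads put MMP12 at least 44.8-fold higher than in RWPE (edgeR, adjusted p = 0.00218). This limit covers counting error only and not the spread between replicates, and 137 of the pooled reads came from replicate 2. The call was lost without LNCaP ACP androgen replicate 2 and with DESeq2 (adjusted p = 0.108).

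Within the lines, 15 comparisons of surface, serum or androgen gave 95 tests of members, of which 11 passed an adjusted p of 0.05, 5 higher and 6 lower. Of these 11, 7 were in the 6 comparisons against plastic control, and 1 (MMP10 in VCaP) had a single library in an arm. None of the 11 kept its call when each library was left out in turn, and none changed sign.

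**Figure D3:**
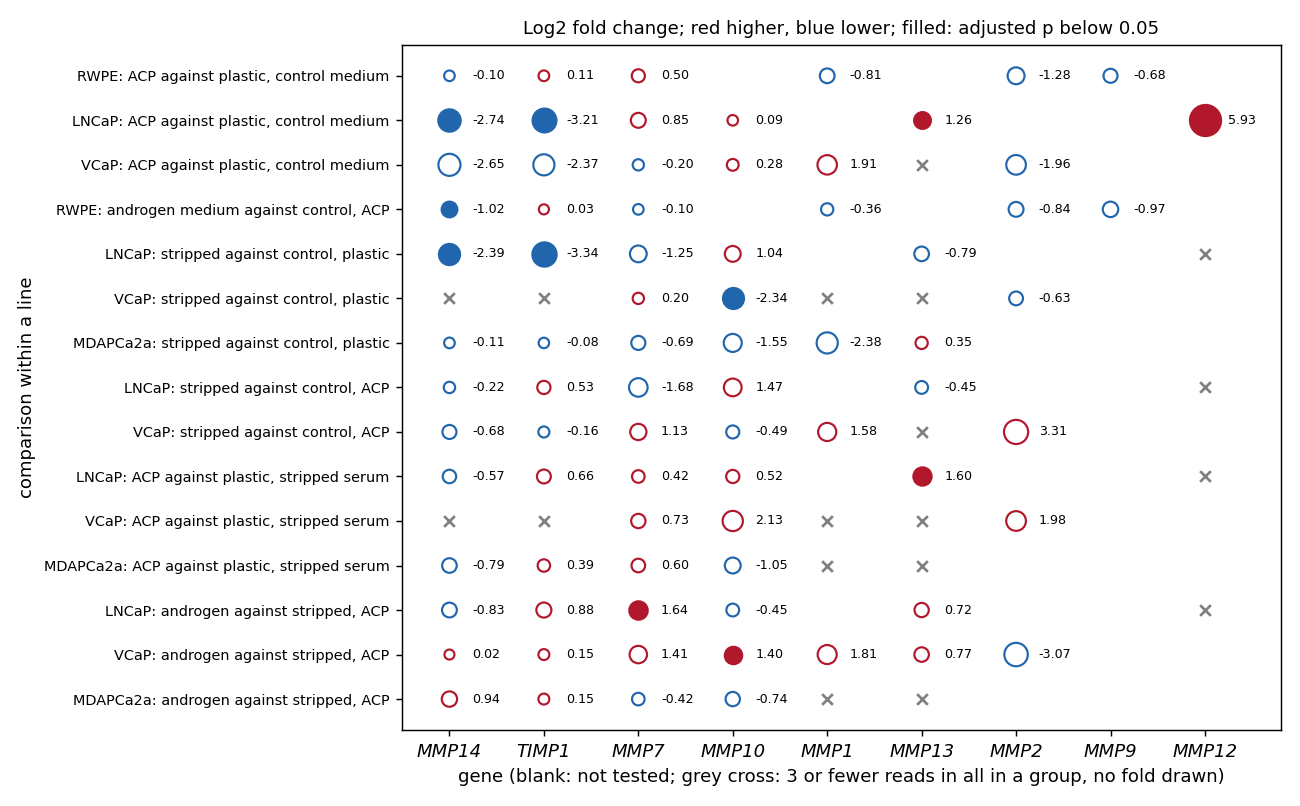
Log2 fold changes of the members (columns) in the 15 comparisons within lines (rows), with larger circles for larger changes, red for higher and blue for lower, and filled circles for an adjusted p below 0.05 (edgeR); grey crosses mark genes with 3 or fewer reads in a group. The 11 filled circles are 8 in LNCaP, 2 in VCaP (both MMP10) and 1 in RWPE (MMP14).

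In RWPE, no tested member passed between plastic and ACP in control medium. By edgeR, 0 of 6 tested members passed, 0 reached an unadjusted p below 0.05, and 0 were called by DESeq2, where 4.16% of all genes passed. MMP14 changed by -0.10 ± 0.21 (adjusted p = 0.816) and TIMP1 by 0.11 ± 0.18 (adjusted p = 0.740). MMP1, MMP2, MMP7 and MMP9 had values of -0.81, -1.28, 0.50 and -0.68. The other 4 members were below the count filter. Of these, MMP10 had 27 and 11 reads on plastic against 2 and 1 on ACP, which did not overlap (adjusted p = 0.0930 with no filter). MMP3 had 3 and 4 reads against 0 and 0, MMP12 had 3 and 0 against 0 and 0, and MMP13 had 1 and 6 against 2 and 1. The list of AP-1 and ETS factors has 13 genes, among them RUNX2, which is of neither family. Of these 13, 0 were higher and 6 were lower on ACP, with a median of -1.12 against 0.03 over all genes. The largest fall was FOSB, a subunit of AP-1, at -2.13 ± 0.35 (adjusted p = 0.0129). ADAM19, a membrane-anchored metalloproteinase, was the only ADAM gene called, at -1.99 ± 0.43 (adjusted p = 0.0342).

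With androgen medium on ACP, RWPE MMP14 fell and TIMP1 did not pass. The MMP14 libraries, at 171, 236 and 226 CPM, did not overlap the control libraries at 485 and 382 CPM. The log2 change was -1.02 ± 0.19 (edgeR, adjusted p = 0.0170), the single call among 6 tested members where 19.1% of all genes passed. It was lost without RWPE ACP control replicate 1 (-0.90, adjusted p = 0.275) or replicate 2 (-1.16, adjusted p = 0.0913), each of which leaves 1 control library. TIMP1 had a value of 0.03 ± 0.16 (adjusted p = 0.929), and its libraries overlapped. The values of MMP1, MMP2, MMP7 and MMP9 were -0.36, -0.84, -0.10 and -0.97, and none passed. TIMP3, an inhibitor that binds to the matrix and does inhibit MMP14, fell from 130 ± 4.28 CPM (SD, n = 2) to 38.3 ± 22.9 (n = 3), by 1.74 ± 0.36 log2 units (adjusted p = 0.0182), and 2 of 4 tested inhibitors were lower. Of 10 tested activators, 3 were lower and 0 higher, the largest fall being ST14, the membrane serine protease matriptase, at -0.92 ± 0.18 (adjusted p = 0.0170). Of 6 other MMP genes 2 were lower, with MMP28 at -0.89 ± 0.25 (adjusted p = 0.0329). The basal markers moved alongside: all 3 were detected, and their sum was 15698 and 12537 CPM in control medium and 3348, 10954 and 3866 with androgen medium. Their part in the MMP14 change was not tested.

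In LNCaP, MMP14 and TIMP1 were higher in plastic control than in the other 4 groups. MMP14 had 140 and 68 reads (2.96 and 1.501 CPM) in plastic control and 3 to 22 reads in the other 8 libraries. TIMP1 had 42 and 44 reads (0.887 and 0.971 CPM) in plastic control and 1 to 8 in the others. For both genes the plastic control libraries did not overlap any other LNCaP library. On ACP in control medium MMP14 fell by 2.74 ± 0.57 log2 units (adjusted p = 0.0165) and TIMP1 by 3.21 ± 0.67 (adjusted p = 0.0166), and in stripped serum on plastic they fell by 2.39 ± 0.55 (adjusted p = 0.0214) and 3.34 ± 0.68 (adjusted p = 0.0120). These comparisons share their control libraries. With 4 of 6 tested members called on ACP and 2 of 6 in stripped serum, the background was 12.6% and 9.45% of all genes.

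Each of these 4 LNCaP calls was lost without any of 3 of its 4 libraries. On ACP, MMP14 was not called without plastic control replicate 1 (-2.18, adjusted p = 0.190), plastic control replicate 2 (-3.14, 0.0899) or ACP control replicate 1 (-2.53, 0.0959), and TIMP1 was not called without the same libraries (-3.28, -3.13 and -2.58, adjusted p = 0.143, 0.126 and 0.111). In stripped serum, MMP14 was not called without plastic control replicate 1 (-1.85, adjusted p = 0.256) or either stripped library (-3.33 and -1.97, adjusted p = 0.0721 and 0.0878), and TIMP1 was not called without either plastic control library (-3.40 and -3.25, adjusted p = 0.0898 and 0.0948) or stripped replicate 1 (-3.05, adjusted p = 0.157). Each omission leaves a group of 1 library, which the fit assumes to vary like the other groups. The 3 basal markers, all detected, summed to 8.68 to 19.4 CPM in LNCaP plastic control and 0.787 to 15.2 elsewhere in LNCaP, and the 8 liver markers to 16.4 to 23.7 CPM against 0.864 to 1.86. The part of these transcripts in the MMP14 and TIMP1 values was not tested, and the library sets and the conditions cannot be told apart.

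VCaP had the same arrangement. MMP14 had 84 and 167 reads in plastic control and 2 to 13 in the other 7 libraries, and TIMP1 had 30 and 45 against 0 to 5. On ACP in control medium the values were -2.65 ± 0.71 (adjusted p = 0.518) and -2.37 ± 0.71 (adjusted p = 0.593). By edgeR 0 of 7 tested members passed, 2 (MMP14 and TIMP1) reached an unadjusted p below 0.05, and 0 were called by DESeq2, where 0.0448% of all genes passed. Both genes passed when the same contrast was taken from the fit of all lines. In stripped serum on plastic, a single library, 3 MMP14 reads gave a ratio of control to stripped of 23.0 (7.77 to 112), and TIMP1 with 0 reads was at least 6.87-fold lower.

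**Figure D4:**
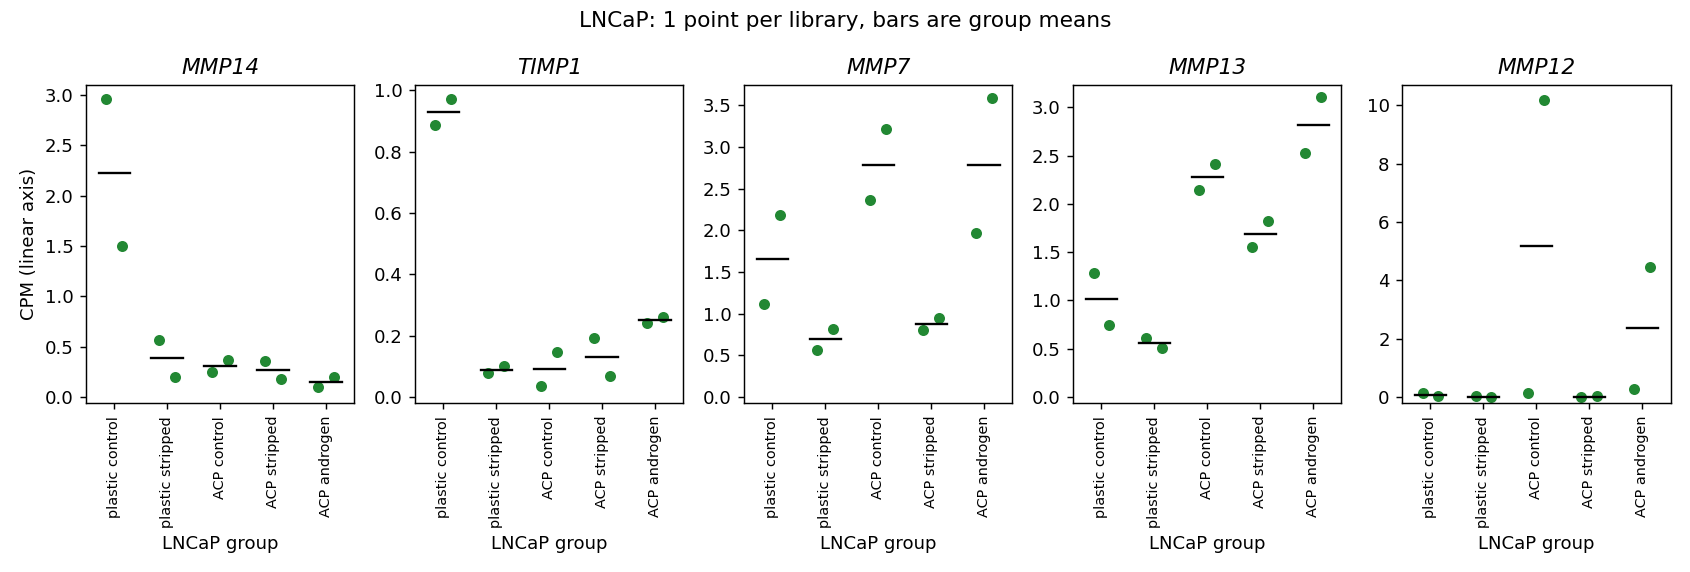
CPM on a linear axis from 0 of MMP14, TIMP1, MMP7, MMP13 and MMP12 in the 5 LNCaP groups, with 1 point per library and a bar at the mean of 2. MMP14 and TIMP1 are high in plastic control only, MMP7 is low in both stripped groups, MMP13 is higher on ACP than on plastic in each medium, and MMP12 rests on 1 library in each of 2 groups.

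MMP13 in LNCaP was higher on ACP than on plastic with and without stripping. It had 1.29 and 0.750 CPM in plastic control against 2.15 and 2.41 on ACP, and 0.616 and 0.510 in stripped serum on plastic against 1.55 and 1.82 on ACP. With androgen on ACP it had 2.52 and 3.10. The 6 ACP libraries lay above the 4 plastic ones. The rise on ACP was 1.26 ± 0.34 log2 units in control medium (adjusted p = 0.0370) and 1.60 ± 0.38 in stripped serum (adjusted p = 0.0337), the only member of 6 called in the latter, where 6.12% of all genes passed. The stripped serum groups do not involve plastic control. Neither call held in the fit of all lines, nor without any of the 4 libraries concerned: the control medium value was 1.69, 0.93, 1.301 and 1.17 without plastic control replicate 1, replicate 2, ACP control replicate 1 and replicate 2 (adjusted p = 0.141, 0.268, 0.115 and 0.0732), and the stripped serum value was 1.68, 1.53, 1.71 and 1.46 without plastic stripped replicate 1, replicate 2, ACP stripped replicate 1 and replicate 2 (adjusted p = 0.203, 0.0734, 0.129 and 0.176). RUNX2, a bone transcription factor known to act on the MMP13 gene, was also higher on ACP, by 0.92 ± 0.25 in control medium (adjusted p = 0.0378) and 1.79 ± 0.28 in stripped serum (adjusted p = 0.00576). RUNX2 was the only gene called in control medium among the 13 of the AP-1 and ETS list, so no AP-1 or ETS factor was called there. In stripped serum 2 were called, RUNX2 and, with the larger rise, FOS at 3.33 ± 0.75 (adjusted p = 0.0288). The part of RUNX2 in the MMP13 values was not tested.

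MMP12 was also called on ACP in LNCaP control medium, at 5.93 ± 1.66 (adjusted p = 0.0415). The value without ACP control replicate 2 was 0.81 (adjusted p = 0.800), and omitting plastic control replicate 1 or 2 also ended the call (6.82 and 5.40, adjusted p = 0.212 in both). Of 9 tested activators 2 were lower in this comparison, with FURIN, the convertase that activates MMP14, at -0.81 ± 0.20 (adjusted p = 0.0280).

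MMP7 in LNCaP was low in stripped serum on both surfaces. It had 1.12 and 2.18 CPM in plastic control and 0.564 and 0.816 in stripped serum on plastic. On ACP it had 2.36 and 3.21 in control medium, 0.808 and 0.946 in stripped serum, and 1.97 and 3.59 with androgen. The stripped libraries did not overlap the libraries with control medium or androgen on the same surface. Addition of androgen to stripped serum on ACP raised MMP7 by 1.64 ± 0.44 log2 units (adjusted p = 0.0468), the only call among 6 tested members, where 7.73% of all genes passed. Without each of ACP stripped replicates 1 and 2 and ACP androgen replicates 1 and 2 the values were 1.53, 1.78, 2.00 and 1.17 (adjusted p = 0.237, 0.178, 0.0513 and 0.163). For stripping itself, the MMP7 value was -1.68 ± 0.45 on ACP (adjusted p = 0.0535), just outside the threshold, and -1.25 on plastic (adjusted p = 0.120). In the ACP comparison edgeR called 0 of 6 tested members, 3 (MMP7, MMP10 and MMP12) reached an unadjusted p below 0.05, 2 were called by DESeq2, and 5.37% of all genes passed. Among inhibitors, A2M, the plasma protease trap, was 2.71 ± 0.69 log2 units higher (adjusted p = 0.0459), 1 of 3 tested. Stripping on plastic lowered MMP17, a membrane-anchored MMP (log2 change -3.46 ± 0.68, adjusted p = 0.0101), 1 of 5 other MMP genes, and androgen on ACP raised FURIN by 0.85 ± 0.20 (adjusted p = 0.0284), 1 of 9 activators.

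In VCaP, androgen on ACP went with the highest levels of MMP10, MMP1 and MMP7 in that line. MMP10 had 3.75 and 5.78 CPM in stripped serum and 12.98 and 12.2 with androgen. It rose by 1.40 ± 0.31 log2 units (adjusted p = 0.01501), the single call among 7 tested members, where 17.5% of all genes passed. The call was lost without ACP stripped replicate 1 (1.17, adjusted p = 0.0782), ACP androgen replicate 1 (1.37, 0.0626) or replicate 2 (1.44, 0.0693), and in the fit of all lines. MMP1 had 0.585 and 1.19 CPM in stripped serum and 3.16 and 3.11 with androgen, and MMP7 had 0.780 and 1.11 against 1.13 and 3.90. Neither passed, at 1.81 ± 0.68 (adjusted p = 0.0914) and 1.41 ± 0.70 (adjusted p = 0.184), although neither gene's libraries overlapped between the groups. Reads of WTAPP1, which spans both MMP10 and MMP1, were 9 and 19 in stripped serum and 56 and 62 with androgen. They were well below the 278 to 300 MMP10 reads of the androgen libraries. For MMP1 the highest VCaP library had 73 reads, near the WTAPP1 reads with androgen. The part of WTAPP1 in the MMP1 values was not tested. The 8 myeloid markers summed to 9.14 to 14.9 CPM in stripped serum and 83.3 to 156 with androgen, nearly all of it LYZ, a secreted lysozyme (81.2 and 154 CPM), with TYROBP at 0 reads in all 4 libraries. The 3 endothelial markers summed to 0.683 to 1.43 CPM and 12.1 CPM. PECAM1 had 0 and 16 reads against 183 to 200, VWF had 14 to 19 against 77 to 97, and CDH5 stood at 0. The 8 fibroblast markers summed to 41.8 to 163 CPM and 8.05 to 8.85. The stripped serum sum was mostly LUM, with group means of 94.6 CPM there and 2.69 with androgen. COL1A1 had means of 4.75 and 4.80 CPM, and with androgen its mean was above that of LUM. The 8 liver markers summed to 272 to 328 and 30.03 to 76.5 CPM, mostly ALB. The part of these transcripts in the MMP values was not tested.

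The other listed protease and inhibitor genes that were called in the same VCaP comparison were all lower. ADAM19 fell by 4.96 ± 0.52 log2 units (adjusted p = 0.000953), PCSK6, a convertase, by 1.53 ± 0.26 (adjusted p = 0.00563), MMP24, a membrane-anchored MMP, by 1.197 ± 0.27 (adjusted p = 0.0160) and TIMP2, the inhibitor that bridges MMP14 to the MMP2 precursor, by 1.00 ± 0.23 (adjusted p = 0.0187). By list, 1 of 6 other MMPs, 1 of 4 inhibitors, 2 of 10 activators and 2 of 8 ADAM genes were lower and none was higher by that edgeR test. Over all genes 8.67% were higher and 8.8% lower, and list counts this small are not a result of their own. Of the 13 genes in the list of AP-1 and ETS factors with RUNX2, 3 were higher and 1 lower, with ETV4 at 2.32 ± 0.59 (adjusted p = 0.0261) and JUN at -1.24 ± 0.29 (adjusted p = 0.0195).

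The androgen effect on ACP could be set against that in LNCaP. Its difference, VCaP minus LNCaP, was 1.83 ± 0.98 for MMP10 (adjusted p = 0.253) and -0.27 ± 0.69 for MMP7 (adjusted p = 0.879). By edgeR 0 of 9 members differed, 2 (MMP1 and MMP2) reached an unadjusted p below 0.05, 0 were called by DESeq2, and 10.9% of all genes passed. The rise of MMP10 in VCaP and of MMP7 in LNCaP is thus not shown to differ between the lines.

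**Figure D5:**
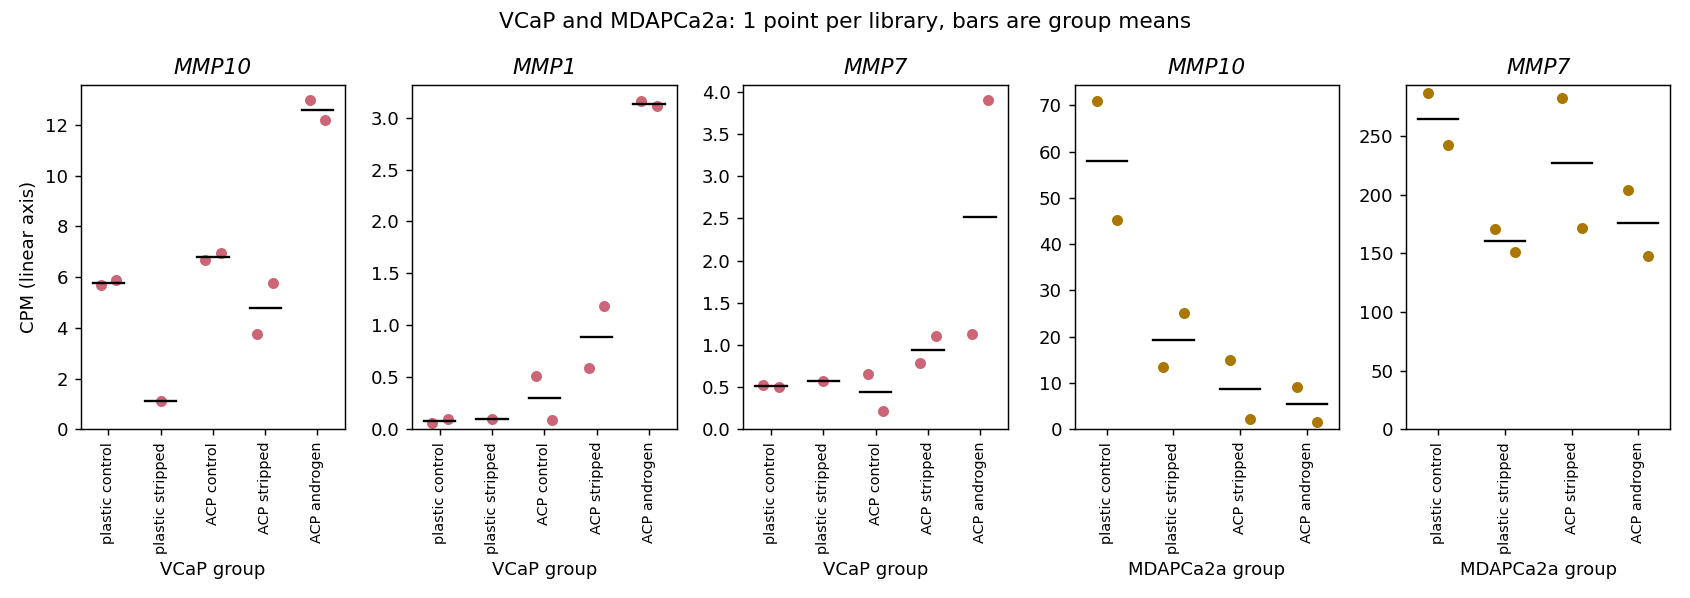
CPM on a linear axis from 0 of MMP10, MMP1 and MMP7 in the 5 VCaP groups and of MMP10 and MMP7 in the 4 MDAPCa2a groups, with 1 point per library and a bar at the group mean. In VCaP the androgen group is highest for each gene; in MDAPCa2a, MMP10 is highest in plastic control, at 71.0 and 45.2 CPM, and its replicates on ACP lie far apart.

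MMP10 was low in the 1 VCaP library in stripped serum on plastic, which has no replicate. It had 23 reads (1.10 CPM) against 195 and 244 reads (5.69 and 5.88 CPM) in plastic control. The difference was -2.34 ± 0.44 log2 units (adjusted p = 0.0476), the only call among 7 tested members, where 0.89% of all genes passed. The test assumes that the lone library varies like the other VCaP groups. The call was lost without plastic control replicate 1 (-2.38, adjusted p = 0.0664) or replicate 2 (-2.36, 0.0510), with RLE scaling (0.0502), with the replicate block (0.0741) and in the fit of all lines (0.0920). Against the same library, MMP10 on ACP in stripped serum was 2.13 ± 0.44 higher, but with an adjusted p of 1 (unadjusted p = 0.000699). In that comparison edgeR called 0 of 7 members and 0% of all genes, 3 members (MMP1, MMP10 and TIMP1) reached an unadjusted p below 0.05 and 0 were called by DESeq2. On ACP, stripping changed MMP10 by -0.49 (adjusted p = 0.447), with 0 of 7 members called by edgeR, 1 (MMP2) at an unadjusted p below 0.05, 0 by DESeq2 and 0.82% of all genes.

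In MDAPCa2a no member passed in any comparison. MMP10 was highest in plastic control and lowest on ACP with androgen, with changes of -1.55 ± 0.81 in stripped serum on plastic (adjusted p = 0.391), -1.05 ± 0.84 on ACP against plastic in stripped serum (0.533) and -0.74 ± 0.88 with androgen (0.968). The plastic groups did not overlap, but replicates within the ACP groups differed from 15.01 to 2.32 and from 9.23 to 1.67 CPM, and the ACP groups overlapped each other. MMP7 changed by -0.69 ± 0.27 (adjusted p = 0.257), 0.60 ± 0.27 (0.340) and -0.42 ± 0.27 (0.968) in the same comparisons, and TIMP1 on ACP by 0.39 ± 0.32 (0.548). MMP1 had 24 and 18 reads in plastic control and 0 to 3 in the other 6 libraries, a change of -2.38 ± 0.73 in stripped serum on plastic (adjusted p = 0.151). MMP13 had 8 and 19 reads in stripped serum on plastic and 1 and 0 on ACP, a ratio of 16.2 (2.67 to 663), and did not pass (adjusted p = 0.279). By edgeR 0 of 6 members passed in each comparison. Unadjusted p was below 0.05 for 2 (MMP1 and MMP7), 1 (MMP13) and 0 members, DESeq2 called 0 in each, and 1.58%, 0.00734% and 0% of all genes passed.

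The effects of stripping and of ACP were also compared between lines, in tests chosen after seeing the data and run by edgeR alone. For stripping on plastic, 0 of 9 members differed between VCaP and LNCaP (1, MMP10, at an unadjusted p below 0.05), where 4.67% of all genes passed. TIMP1 alone differed between MDAPCa2a and LNCaP, where 1.81% of all genes passed, and TIMP1 and MMP14 passed between MDAPCa2a and VCaP, where 3.12% passed. The VCaP effect there rests on 1 stripped library, with 0 TIMP1 and 3 MMP14 reads, which the fit assumes to vary like the other groups. In both contrasts the plastic control libraries of the second line hold its highest TIMP1 and MMP14 levels, while MDAPCa2a kept TIMP1 at 11.9 and 5.49 CPM in stripped serum. For stripping on ACP, 0 of 9 differed between VCaP and LNCaP (1, MMP7, at an unadjusted p below 0.05), where 0.595% of all genes passed. For ACP against plastic in stripped serum, 0 of 9 differed in each of the 3 pairs of lines. The unadjusted p was below 0.05 for 0 members between VCaP and LNCaP (0.127% of all genes passed), 1 (MMP13) between MDAPCa2a and LNCaP (0.358%) and 4 (MMP1, MMP10, MMP13 and TIMP1) between MDAPCa2a and VCaP (0%).

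Other genes of the pathway were compared between the lines for the same lists. TIMP3 was lower than in RWPE in all 3 lines and both settings, with log2 differences of -7.17 to -10.25, and stood at 38.3 to 130 CPM as group means in RWPE and at most 1.56 in any other library. TIMP2 stood at 19.9 CPM or more in LNCaP and VCaP but was 2.28 to 3.10 CPM as group means in MDAPCa2a, so the line with the most MMP7 held little TIMP2 or TIMP3 and an intermediate level of TIMP1. PLAU, which makes plasmin, was lower in all 3 lines in both settings, with log2 differences of -5.90 to -9.50. HPN, the serine protease hepsin, was higher in all 3, by 6.71 to 8.45. On plastic, 57.4%, 62.4% and 56.7% of all genes differed from RWPE in LNCaP, VCaP and MDAPCa2a, and the list counts are read against these shares. Of 8 tested MMP genes outside the 9, 4 were higher and 1 lower in LNCaP on plastic, 3 and 1 in VCaP and 3 and 2 in MDAPCa2a. The largest fall in each was MMP28, an epithelial MMP, at -9.53, -4.01 and -8.25. MMP20, the enamel protease that lies next to MMP7, was the largest rise in MDAPCa2a, at 10.05 ± 0.70 on plastic (adjusted p = 1.58e-11) and 8.35 ± 0.54 with androgen (adjusted p = 3.72e-12). Its group means were 23.7 to 49.5 CPM in MDAPCa2a and at most 0.153 in every other group. Of the 13 genes in the list of AP-1 and ETS factors with RUNX2, 3 were higher and 8 lower in LNCaP on plastic, 0 and 9 in VCaP and 2 and 5 in MDAPCa2a. FOSL1 was lower in all 3 lines, with differences of -5.98 to -6.53 log2 units.

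Several genes followed the members over the 17 group means, as a description over groups that share lines and libraries. By Pearson's r of log2(CPM + 1) among 12070 genes, the genes most like MMP7 were PCAT18 (r = 0.989), PPP1R1B (0.987) and LOC100129434 (0.987), all highest in MDAPCa2a. Those most like MMP14 were PRKCDBP (0.993), SEMA3A (0.992) and TENM3 (0.992), all highest in RWPE. C4orf19 (0.924), CREB3L1 (0.918) and PAG1 (0.909) were most like MMP10, and SPESP1 (0.987) was most like TIMP1. Among the members themselves, MMP14 and TIMP1 had r = 0.821, MMP7 and MMP10 0.701, and MMP7 and MMP14 -0.338.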

How the data were processed

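The deposited values are the authors' read counts per gene symbol, whole numbers in 1 table of 26336 genes by 34 libraries, and libraries were poly(A) selected, per the labels' protocols. The submitters' processing notes name STAR, HTSeq and hg19; the sources used here do not give versions, annotation or strand. Of these genes, 4335 had 0 reads throughout. Total counts of 15.4 M to 44.8 M set the precision, and exact 95% intervals and limits of 3 counts over a group cover counting error only.

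Genes were tested with edgeR 4.0.16 in R 4.3.3 (quasi-likelihood test on TMM-scaled counts of genes kept by filterByExpr at 10 counts, Benjamini-Hochberg adjusted p below 0.05 over all genes). Contrasts within a line used that line's groups, and contrasts between lines used all 34 libraries. SE is the log2 change divided by the square root of F. Tested members numbered 6 in RWPE, LNCaP and MDAPCa2a, 7 in VCaP and 9 in the fit of all lines. DESeq2 1.42.0, RLE scaling, no filter, a replicate block and omission of each library were alternatives. Scripts were tested on simulated data. CPM uses TMM sizes over all lines, and CPM per kilobase uses exon lengths from GENCODE v29, of another build than hg19. Promoters are from RefSeq.

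The 10 members are the named genes. The plot of changes holds every tested member in each comparison within lines, and the text gives those called and others chosen after their values were seen. The rule for the 5 other lists (13 other MMPs, 5 inhibitors, 11 activators, 9 ADAM genes and 13 AP-1 and ETS factors, RUNX2 among these) names at most the largest rise and fall per comparison. RUNX2 in stripped serum and TIMP2, PLAU, TIMP3 and FOSL1 between lines were also named after their values were seen. The 3 genes most like a member were sought among genes with a group mean of at least 10 CPM. Members and lists were chosen with earlier results of these data known. Of the genes like TIMP1 only 1 is reported, and 1 gene of the lists is not reported here.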

Additional observations from a re-analysis of the deposited data

Results flagged for a closer look

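Over the 66 pairs of cell lines and tested members with a shared contrast, 8 showed the libraries of both lines separated between the groups and in opposite directions. The tests of these differences were chosen after seeing the data: 7 contrasts between lines in the fit of all 34 libraries (edgeR, adjusted over all genes). None of the 8 pairs passed them. With so few libraries per group, separation in opposite directions can arise by chance. No share over all genes is given beside the 8 of 66 pairs, so this count is not a result of its own.

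For serum stripping on plastic, MMP7 changed by -1.25 in LNCaP and -0.69 in MDAPCa2a against 0.20 in VCaP (difference 1.47 ± 0.96, adjusted p = 0.413, VCaP minus LNCaP, and -0.88 ± 0.88, 0.672, MDAPCa2a minus VCaP). MMP10 changed by 1.04 in LNCaP against -2.34 in VCaP and -1.55 in MDAPCa2a (differences from LNCaP of -3.39 ± 1.22, adjusted p = 0.108, and -2.59 ± 1.02, 0.292). VCaP in stripped serum on plastic is a single library.

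For stripping on ACP, MMP7 changed by -1.68 in LNCaP and 1.13 in VCaP, a difference of 2.80 ± 0.79 (adjusted p = 0.0969), and MMP10 by 1.47 and -0.49, a difference of -2.003 ± 1.06 (adjusted p = 0.426). In LNCaP, MMP7 and MMP10 thus lay on opposite sides, and in VCaP they lay on the reverse sides, each with 2 libraries per group. Neither difference passed, so a reversal between these lines is not shown. For ACP against plastic in stripped serum, the fitted MMP13 values were 1.60 for LNCaP, 5.76 for VCaP and -3.77 for MDAPCa2a. The VCaP value rests on 11 reads against 0, at least 1.70-fold, and that of MDAPCa2a on 1 read against 27. MDAPCa2a differed from LNCaP by -5.43 ± 1.48 (adjusted p = 0.111) and from VCaP by -9.69 ± 2.79 (adjusted p = 0.377).

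By the same tests TIMP1 differed between MDAPCa2a and LNCaP for stripping on plastic, by 3.26 ± 0.58 (adjusted p = 0.00175), where 1.81% of all genes passed. Between MDAPCa2a and VCaP the fitted values were 7.66 for TIMP1 (adjusted p = 0.00360) and 4.32 for MMP14 (adjusted p = 0.0163), where 3.12% passed. That VCaP arm is 1 library with 0 TIMP1 and 3 MMP14 reads. These p-values thus have no replicate check in it, and the fitted TIMP1 value depends on how a count of 0 is treated and is no measure of size.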

How the results depend on the processing

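Of the 22 comparisons, 11 kept a count of called members within 1.5 times the reported one under every alternative run: RLE scaling, no count filter, DESeq2, a replicate block, the fit of all lines and leaving out each library. In the 6 comparisons of lines, 29 of 37 member calls held without each library in turn and 8 did not, while RLE scaling lost 1, DESeq2 3 and the block 2. Within lines, all 11 calls were lost without at least 1 library. RLE scaling and the block each lost 1 of these 11 and the fit of all lines 4. No called member changed sign.

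In the other 11 comparisons at least 1 alternative moved the count by more than 1.5 times. Without 1 library they ran from 0 to 2 instead of 4 for LNCaP on ACP in control medium, 0 to 1 instead of 1 for RWPE with androgen, 0 to 1 instead of 2 for LNCaP stripping on plastic, 0 instead of 1 for VCaP stripping on plastic, 0 to 1 instead of 0 for LNCaP stripping on ACP, 0 instead of 1 for LNCaP on ACP in stripped serum, 0 instead of 1 for LNCaP with androgen, 0 to 1 instead of 1 for VCaP with androgen, and 0 to 1 instead of 0 for the androgen difference between VCaP and LNCaP. For VCaP stripping on plastic the count of 1 became 0 with RLE scaling or the block, 3 with no filter, and 2 with DESeq2 or the fit of all lines. For LNCaP stripping on ACP the count of 0 became 2 with no filter, DESeq2, the block or the fit of all lines. For LNCaP with androgen the count of 1 became 2 with no filter, DESeq2 or the block. For VCaP with androgen it became 3 with no filter or the fit of all lines. MDAPCa2a stripping on plastic gave 1 with no filter, LNCaP on ACP in stripped serum 0 in the fit of all lines, and VCaP on ACP in control medium 2 in that fit. The cause of these moves was not tested, apart from the smaller groups when a library is left out.

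Small values that did not pass changed sign. Without 1 library, MMP14 in RWPE on ACP ran from -0.28 to 0.0417, and TIMP1 from -0.0066 to 0.21. With androgen medium in RWPE, TIMP1 ran from -0.0693 to 0.12 and was -0.0284 with the replicate block. In MDAPCa2a, TIMP1 on ACP ran from -0.0751 to 1.03, and with androgen MMP7 ran from -0.75 to 0.0416 and MMP10 from -2.40 to 1.21. The MMP7 androgen difference between VCaP and LNCaP ran from -1.45 to 0.36. In the check of replicate numbers, same-numbered libraries correlated in their deviations at r of -0.567 to 0.684 over 23 pairs of groups, above 0.1 in 8, so the numbers are not taken to pair libraries. Depth limits MMP3, MMP9, MMP12 and MMP2 outside RWPE most, where most libraries had under 10 reads.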
